A study of Homo sapiens with 30 samples.

Results

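The inhibitors of the cyclin-dependent kinases coded by 6 genes were followed as RNA through the 30 RNA-seq libraries of this study. The genes were CDKN1A, CDKN1B, CDKN1C, CDKN2B, CDKN2C and CDKN2D. They were chosen by name, and all 6 passed the filter on low counts and are among the 20875 genes tested. The libraries came from H1299, a human lung carcinoma cell line that makes no p53 protein of its own, and each group held 3 libraries.

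Cyclin-dependent kinases drive the cell cycle once they are bound by a cyclin. The CIP/KIP inhibitors p21 (CDKN1A), p27 (CDKN1B) and p57 (CDKN1C) bind complexes of cyclins with their kinases, those of cyclin E, cyclin A and cyclin B among them. The INK4 inhibitors p15 (CDKN2B), p18 (CDKN2C) and p19 (CDKN2D) bind CDK4 and CDK6 and keep them from cyclin D. When these kinases are held back, RB1 and the related pocket proteins RBL1 and RBL2 stay active and restrain the genes of S phase. CDKN1A is a textbook target of p53, whereas p27 is set largely by the turnover of its protein, which an RNA measurement does not see.

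The cells were transiently transfected with a plasmid, sorted for green fluorescence and collected 6 h or 24 h later. Cells given pGFP carried the fluorescent marker alone, and every p53 plasmid carried that marker as well. The p53-WT group received wild type p53, and the p53-RW group the hot spot mutant in which an arginine of the DNA-binding domain is replaced by tryptophan. The p53 O6-meG group received a p53 plasmid with 1 O6-methylguanine in the transcribed strand at that codon, in cells whose repair protein AGT was active. The p53 TM group received the same plasmid after AGT had been inactivated with 10 µM O6-benzylguanine, so that RNA polymerase meets the lesion and can place a wrong base in the transcript (transcriptional mutagenesis, TM). No group received O6-benzylguanine with another plasmid, so an effect of the inhibitor itself and one of the lesion cannot be told apart. The plasmids drive p53 from outside its own locus, and the study's methods call the 3 replicates of a group biological, without saying in which step they were separate, and the p-values measure the spread between these libraries.

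Assigned reads ran from 32302699 to 71950532 per library, with a median of 44424643. Levels are given as CPM, the reads of a gene per 1000000 assigned reads of its library, with library sizes scaled by the trimmed mean of M-values. Of the markers of the line, VIM reached 1940 to 3580 CPM and KRT18 273 to 720 CPM, while the epithelial genes CDH1 and EPCAM were near 0 and the lung gene NKX2-1 stayed at or below 1.2 CPM. Markers of blood cells were near 0 as well, with PTPRC at most 0.05 CPM and CD14 at most 1.81 CPM.

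At 6 h 2 libraries have titles that name both the O6-meG group and the TM group: the libraries labelled p53 O6-meG replicate 2 and p53 TM replicate 2. They were placed by the part of the title that gives the replicate and by the genotype field, whereas the headers of the count table follow the other part of the title and name the opposite group for each. Their CDKN1A levels lie with the other group, as given below. The CDKN1A results of these groups at 6 h, and the CDKN2D differences of p53 TM from p53-WT and p53 O6-meG, are therefore also given with both exchanged and with both left out, and for the other 4 members neither step changed a call. Both steps were chosen with the CDKN1A levels known. Small p-values of CDKN1A after either step are therefore no test of the placement and no independent test of a CDKN1A difference. All values, counts and plots are for the libraries as labelled where nothing else is said.

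CDKN1A lies on the plus strand of chromosome 6 (hg38, chr6:36676460-36687337), and its RNA was counted under ENSG00000124762.13. A pair of p53 half-sites with no base between them was found 2246 bases before the start of its canonical transcript, at chr6:36676449-36676468 on the plus strand, and it is shown because CDKN1A is the member called upward with p53-WT. The capitals mark the 2 half-sites of 10 bases each, and the stretch reaches into the first untranslated exon of a longer annotated transcript:
CDKN1A upstream site: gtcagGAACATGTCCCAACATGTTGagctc

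The p53 consensus was searched on the 3000 bases before the start, with at most 2 mismatches over both half-sites, a fixed C and G in the core of each, and 0 to 13 bases between them; it reads the same on both strands. In the window before the canonical start, CDKN1A was the 1 member of 6 with a match, and 25.5% of 20675 genes had one. Before the outermost annotated gene start the figures were again 1 of 6 members, CDKN1A by other matches, and 25.6% of genes. With at most 1 mismatch no member had a match in either window, against 4.34% and 4.21% of genes. A match at these settings is common, and it is a description of these letters alone.

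CDKN1A was higher in cells with wild type p53 at both times. At 6 h its level was 42.1, 34.0 and 43.7 CPM in the pGFP libraries and 259.9, 242 and 262 CPM in the p53-WT libraries. At 24 h it was 44.8, 50.3 and 49.3 CPM with pGFP and 546, 791 and 513 CPM with p53-WT. All 3 p53-WT libraries lay far above all 3 pGFP libraries at either time. The log2 fold change was 2.67 (SE 0.45, adjusted p = 0.00056) at 6 h, a 6.37-fold rise, and 3.68 (SE 0.47, adjusted p = 8.7e-07) at 24 h, a 12.8-fold rise. Both passed the test under all 38 alternatives.

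With the p53-RW mutant CDKN1A stayed within the spread of the pGFP libraries at both times, apart from 1 library at 6 h and 1 at 24 h that lay just above them. The p53-RW libraries held 42.7, 37.5 and 46.4 CPM at 6 h and 45.9, 50.5 and 44.9 CPM at 24 h, which overlap the pGFP libraries at both times. The log2 fold change against pGFP was 0.08 (95% interval -0.80 to 0.96) at 6 h and -0.03 (-0.91 to 0.85) at 24 h.

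With the O6-meG plasmid and active AGT, CDKN1A at 24 h stood at 529, 781 and 518 CPM, within the range of p53-WT. It was 12.7-fold above pGFP (log2 3.66, SE 0.47, adjusted p = 1.5e-06), and its log2 difference from p53-WT was -0.02 with a 95% interval of -0.87 to 0.84. At 6 h the libraries labelled p53 O6-meG held 268, 50.0 and 261 CPM. Replicates 1 and 3 lay with p53-WT, and the library labelled replicate 2 lay nearer to pGFP.

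With AGT inactivated, CDKN1A at 24 h stood at 369, 422 and 289 CPM, above every pGFP library and below every p53-WT and p53 O6-meG library. It was 7.48-fold above pGFP (log2 2.90, SE 0.45, adjusted p = 0.00024), a rise that passed the test under all 38 alternatives. Against p53-WT it was 0.584 times as high (log2 -0.78, SE 0.42, adjusted p = 0.21), and against p53 O6-meG 0.591 times as high (log2 -0.76, SE 0.42, adjusted p = 0.30), so neither difference passed the test with all libraries as labelled. These SEs draw on the spread within all 10 groups, the 2 conflicting libraries included. With those 2 libraries exchanged the difference from p53-WT was again -0.78, with an SE of 0.15 and an adjusted p of 0.00049, and with both left out it was -0.77 (SE 0.15, adjusted p = 0.00074). With only the p53 TM and p53-WT libraries at 24 h in the fit it was -0.77 (SE 0.18, adjusted p = 0.037). The difference from p53 O6-meG had adjusted p = 0.0015 with the 2 libraries exchanged and 0.0023 with both left out.

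At 6 h the libraries labelled p53 TM held 65.7, 249 and 57.7 CPM of CDKN1A. Replicates 1 and 3 lay just above the pGFP libraries, and the library labelled replicate 2 lay among p53-WT. As labelled, the log2 fold change against pGFP was 1.64 (SE 0.43, adjusted p = 0.24) and that against p53-WT -1.04 (SE 0.42, adjusted p = 0.21). The value against pGFP fell to 0.53 (SE 0.16, adjusted p = 0.20) with the 2 conflicting libraries exchanged and to 0.63 (SE 0.17, adjusted p = 0.23) with both left out. Exchanging the 2 conflicting libraries gave -2.14 against p53-WT (adjusted p = 1.3e-10), leaving both out gave -2.04 (adjusted p = 2.8e-08), and leaving out the library labelled p53 TM replicate 2 alone gave -2.04 (adjusted p = 0.00088). Against p53 O6-meG it was -0.64 as labelled (adjusted p = 1), -2.16 exchanged (adjusted p = 2.5e-10) and -2.10 with both left out (adjusted p = 1.5e-07).

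The comparison of the p53 O6-meG libraries with pGFP at 6 h gave 2.27 for CDKN1A as labelled (SE 0.44, adjusted p = 0.018), 2.70 with the conflicting libraries exchanged (SE 0.16, adjusted p = 1.6e-12) and 2.73 with both left out (SE 0.17, adjusted p = 3.2e-11). Against p53-WT it was -0.40 (SE 0.42), 0.03 (SE 0.15) and 0.05 (SE 0.17) in the same order, and none of the 3 passed the test. The as-labelled call against pGFP was lost without any 1 of the pGFP libraries at 6 h (adjusted p 0.12, 0.16 and 0.11 for replicates 1, 2 and 3) or without p53 O6-meG replicate 1 or 3 (0.18 and 0.13).

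**Figure D1:**
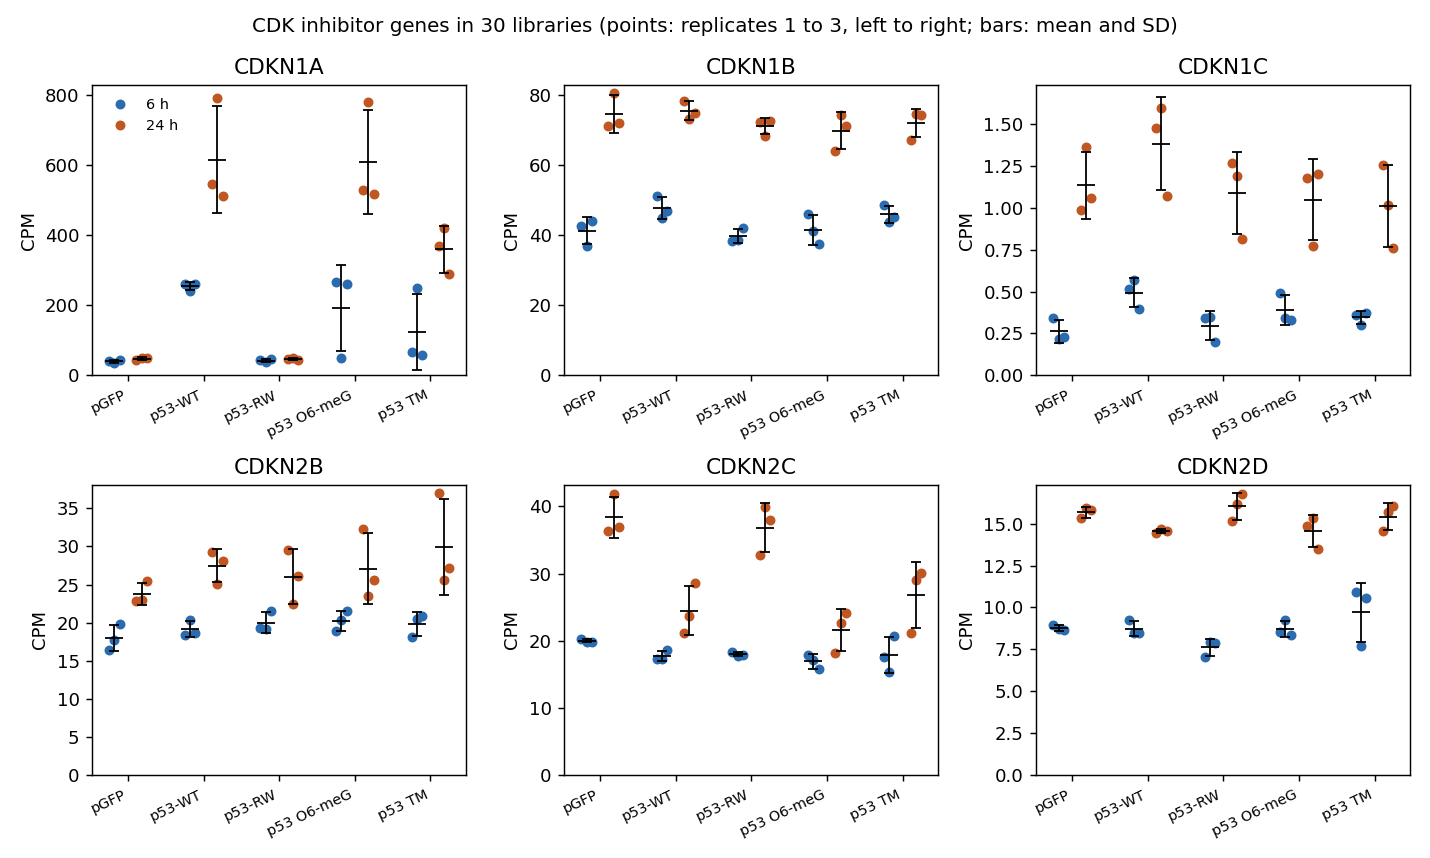
Level of each CDK inhibitor gene in CPM (vertical axes, linear from 0) in every library, by plasmid or treatment (horizontal axes), at 6 h (blue) and 24 h (orange). Points are replicates 1 to 3 from left to right and black bars the mean and SD of 3 libraries. CDKN1A reached 791 CPM with p53-WT at 24 h and stayed at or below 50.5 CPM with pGFP or p53-RW. CDKN1B, CDKN1C, CDKN2B and CDKN2D differed mostly by time. CDKN2C differed by time and, at 24 h, also by plasmid.

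The part of the p53-WT rise that each library kept puts the same values on a scale on which 0% is the pGFP mean and 100% the p53-WT mean of that time. At 24 h the p53 O6-meG libraries kept 84.6%, 129% and 82.7% (mean 98.8% ± 26.2, SD, n = 3), and the p53 TM libraries 56.5%, 65.7% and 42.4% (mean 54.9% ± 11.7, SD, n = 3). At 6 h the libraries labelled p53 O6-meG kept 106%, 4.70% and 103%, and those labelled p53 TM 12.0%, 97.6% and 8.29%. With the 2 conflicting libraries exchanged, the 6 h means were 102.2% ± 4.34 (SD, n = 3) for p53 O6-meG and 8.34% ± 3.66 (SD, n = 3) for p53 TM, and with both left out 104.5% and 10.2% (n = 2 each). Under either treatment of those libraries, p53 TM cells held a smaller part of the CDKN1A rise at 6 h than at 24 h. From 6 h to 24 h their log2 difference from p53-WT changed by 1.36 (adjusted p = 0.00025) and 1.27 (adjusted p = 0.0024). Both treatments were chosen with these CDKN1A levels known, so the 2 p-values are no independent test of that change. As labelled, that change was 0.26 (SE 0.59, adjusted p = 0.95), where 0.0671% of all genes tested were called.

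**Figure D2:**
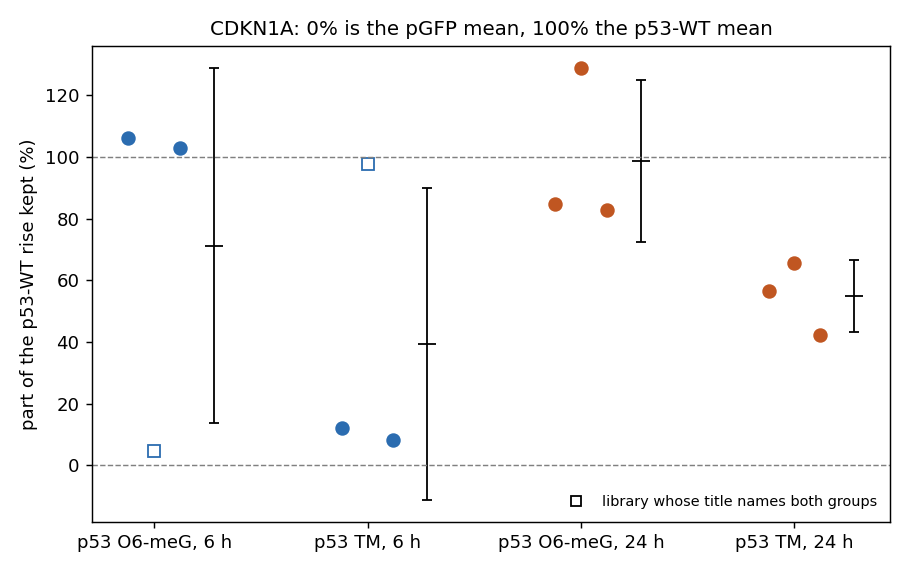
Part of the CDKN1A rise kept (vertical axis, percent of the p53-WT rise over pGFP) in each p53 O6-meG and p53 TM library at 6 h (blue) and 24 h (orange), with the mean and SD of 3 libraries beside them. Open squares are the libraries whose titles name both groups, at 4.70% and 97.6%, each beside the other group's 2 remaining values; at 24 h the p53 TM libraries lie between 42.4% and 65.7%.

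CDKN1A also rose with time in cells with wild type p53, by 1.28 on the log2 scale (SE 0.42, adjusted p = 0.016). The call was lost without p53-WT replicate 2 at 6 h (adjusted p = 0.051) or at 24 h (0.070). With pGFP the change from 6 h to 24 h was 0.27 (SE 0.43, adjusted p = 0.65) and with p53-RW 0.16 (SE 0.43, adjusted p = 0.80). In a fit of the pGFP libraries alone the pGFP change was 0.31 (adjusted p = 0.019). The response to p53-WT over pGFP was larger at 24 h than at 6 h by 1.01, which did not pass the test in the libraries as labelled (SE 0.60, adjusted p = 0.42; 4.9% of genes called) and did with the conflicting libraries exchanged (adjusted p = 0.0043), with both left out (0.0061) or with the 4 groups concerned alone (0.0049).

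CDKN2C, the p18 inhibitor of CDK4 and CDK6, was lower at 24 h with p53-WT, p53 O6-meG and p53 TM than with pGFP. It lies on the plus strand of chromosome 1 (hg38, chr1:50960745-50974634, ENSG00000123080.10). At 24 h the pGFP libraries held 36.3, 41.9 and 36.9 CPM and the p53-RW libraries 32.8, 39.9 and 37.9 CPM. The p53-WT libraries held 21.2, 23.8 and 28.5 CPM, the p53 O6-meG libraries 18.1, 22.6 and 24.1 CPM, and the p53 TM libraries 21.2, 29.1 and 30.1 CPM. All 9 of these libraries lay below all 6 pGFP and p53-RW libraries.

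The log2 fold change of CDKN2C against pGFP at 24 h was -0.65 with p53-WT (SE 0.13, adjusted p = 0.00019), 0.638 times the pGFP level. It was -0.83 with p53 O6-meG (SE 0.13, adjusted p = 1.4e-05), 0.563 times that level, and -0.52 with p53 TM (SE 0.13, adjusted p = 0.0082), 0.699 times that level. None of the 3 reaches the 2-fold that the study asked of its differentially expressed genes. The first 2 passed the test under all 38 alternatives, and the p53 TM call was lost without pGFP replicate 2 at 24 h (-0.45, adjusted p = 0.058) or without p53 TM replicate 1 at 24 h (-0.37, adjusted p = 0.098). With p53-RW the log2 fold change was -0.06 (95% interval -0.31 to 0.20).

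At 6 h CDKN2C had not moved beyond the test in any group. It was at 20.3, 19.9 and 19.9 CPM with pGFP, 17.3, 17.3 and 18.6 CPM with p53-WT, 18.4, 17.7 and 17.9 CPM with p53-RW, 17.9, 17.2 and 15.8 CPM in the libraries labelled p53 O6-meG and 17.6, 15.4 and 20.7 CPM in those labelled p53 TM. The p53-WT libraries lay below the pGFP libraries by little (log2 -0.17, 95% interval -0.43 to 0.09). The response to p53-WT at 24 h was lower than that at 6 h by 0.48 on the log2 scale (log2 -0.48, SE 0.18, adjusted p = 0.13). With the replicate number as a block this change passed the test (-0.48, adjusted p = 0.012), as it did with the 4 groups alone (adjusted p = 0.047) and without p53-WT replicate 3 at 24 h (-0.60, adjusted p = 0.047).

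The p53 TM cells did not differ from p53-WT in CDKN2C beyond the test at 24 h (log2 0.13, 95% interval -0.13 to 0.39). Against p53 O6-meG they were higher by 0.31 (SE 0.13, adjusted p = 0.14), and with the replicate number as a block the same difference of 0.31 had adjusted p = 0.020. Without p53 TM replicate 1 at 24 h it was 0.46 (adjusted p = 0.025).

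CDKN1B, CDKN1C, CDKN2B and CDKN2D did not pass the test against pGFP with any p53 plasmid at 6 h or 24 h. CDKN1B, which codes for p27 (hg38, chr12:12685498-12722369, plus strand, ENSG00000111276.10), stood at 36.8 to 51.1 CPM in the 15 libraries at 6 h and 64.0 to 80.6 CPM in the 15 libraries at 24 h. At 6 h it was 42.7, 36.8 and 44.1 CPM with pGFP and 51.1, 45.0 and 47.0 CPM with p53-WT, a log2 difference of 0.21 (SE 0.08, adjusted p = 0.13). At 24 h its difference between p53-WT and pGFP was 0.02, with a 95% interval of -0.15 to 0.19, the narrowest among the members. The 24 h libraries held 71.0, 80.6 and 71.9 CPM with pGFP, 78.3, 73.2 and 74.9 CPM with p53-WT, 72.1, 68.4 and 72.5 CPM with p53-RW and 64.0, 74.3 and 71.1 CPM with p53 O6-meG, and these groups overlapped.

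CDKN1C, which codes for p57 (hg38, chr11:2883213-2885775, minus strand, ENSG00000129757.12), was close to silent, with 10 to 74 reads per library. At 6 h it was at 0.343, 0.218 and 0.227 CPM with pGFP and 0.514, 0.568 and 0.398 CPM with p53-WT. The 2 groups did not overlap, and the log2 difference of 0.88 (SE 0.30, adjusted p = 0.069) did not pass the test at this depth. At 24 h the p53-WT libraries held 1.48, 1.60 and 1.07 CPM and the pGFP libraries 0.986, 1.36 and 1.06 CPM, which overlap (log2 0.28, 95% interval -0.21 to 0.77).

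CDKN2B, which codes for p15 (hg38, chr9:22002903-22009305, minus strand, ENSG00000147883.10), stood at 16.4 to 21.6 CPM at 6 h in all 15 libraries. At 24 h it was at 22.8, 23.0 and 25.5 CPM with pGFP and at 37.1, 25.5 and 27.2 CPM with p53 TM. Replicate 1 of p53 TM was the highest of all libraries, and replicate 1 was also the highest of its group with p53-WT (29.3, 25 and 28.1 CPM), p53-RW (29.6, 22.4 and 26.2 CPM) and p53 O6-meG (32.3, 23.4 and 25.6 CPM). The difference of 0.33 (SE 0.13, adjusted p = 0.11) did not pass the test, and with the replicate number as a block it was 0.31 with adjusted p = 0.012. Without p53 TM replicate 2 at 24 h it was 0.43 (adjusted p = 0.048).

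CDKN2D, which codes for p19 (hg38, chr19:10566460-10569059, minus strand, ENSG00000129355.6), stood at 7.04 to 10.9 CPM at 6 h and 13.5 to 16.8 CPM at 24 h. The libraries labelled p53 TM at 6 h held 10.9, 7.69 and 10.5 CPM, against 9.24, 8.47 and 8.46 CPM with p53-WT. As labelled the difference was 0.16 (SE 0.10, adjusted p = 0.48), with the 2 conflicting libraries exchanged it was 0.23 (adjusted p = 0.051), and with both left out it was 0.30 (adjusted p = 0.021), as it was with the library labelled p53 TM replicate 2 alone left out (0.30, adjusted p = 0.024). Against p53 O6-meG at 6 h CDKN2D in p53 TM cells differed by 0.16 as labelled (adjusted p = 1), 0.32 exchanged (adjusted p = 0.010) and 0.34 with both left out (adjusted p = 0.037). At 24 h CDKN2D was at 15.3, 15.9 and 15.8 CPM with pGFP, 14.5, 14.7 and 14.6 CPM with p53-WT, 15.2, 16.2 and 16.8 CPM with p53-RW, 14.9, 15.4 and 13.5 CPM with p53 O6-meG and 14.5, 15.7 and 16.1 CPM with p53 TM. The p53-WT libraries lay just below the pGFP libraries (log2 -0.11, 95% interval -0.30 to 0.09). The difference between p53 TM and p53-WT was 0.08, with a 95% interval of -0.11 to 0.28.

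Set beside all genes tested, and with the libraries as labelled, the members called were few in each vector comparison at 6 h. With p53-WT against pGFP, 1 of 6 members was called, where 8.75% of all genes were. With p53 O6-meG 1 of 6 was called (0.35% of all genes), with p53 TM 0 of 6 (0.0814%) and with p53-RW 0 of 6 (0.00479%). Of the comparisons among the p53 plasmids at 6 h, p53 O6-meG against p53-WT (0.00479% of all genes called), p53 TM against p53-WT (0.0766%) and p53 TM against p53 O6-meG (0%) called no member. With the 2 conflicting libraries exchanged, the last 2 of these called 1 and 2 members, and with both left out 2 and 2. The shares of all genes above belong to the fit as labelled. Those of the exchanged and left-out fits are not given here, so these counts have no share beside them.

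At 24 h, 2 of 6 members were called with p53-WT (34.9% of all genes), with p53 O6-meG (29.3%) and with p53 TM (9.2%), in each case CDKN1A upward and CDKN2C downward. With p53-RW 0 of 6 were called (0.00479%). No member was called for p53 O6-meG against p53-WT (0%), p53 TM against p53-WT (18.5%) or p53 TM against p53 O6-meG (6.5%), whereas the last 2 of these each called 1 member, CDKN1A, with the conflicting libraries exchanged or left out. The shares of all genes are for the libraries as labelled, and those of the exchanged and left-out fits are not given here. A share of 2 in 6 is close to the share of all genes for p53-WT and p53 O6-meG. All 3 comparisons with pGFP share the same control libraries.

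**Figure D3:**
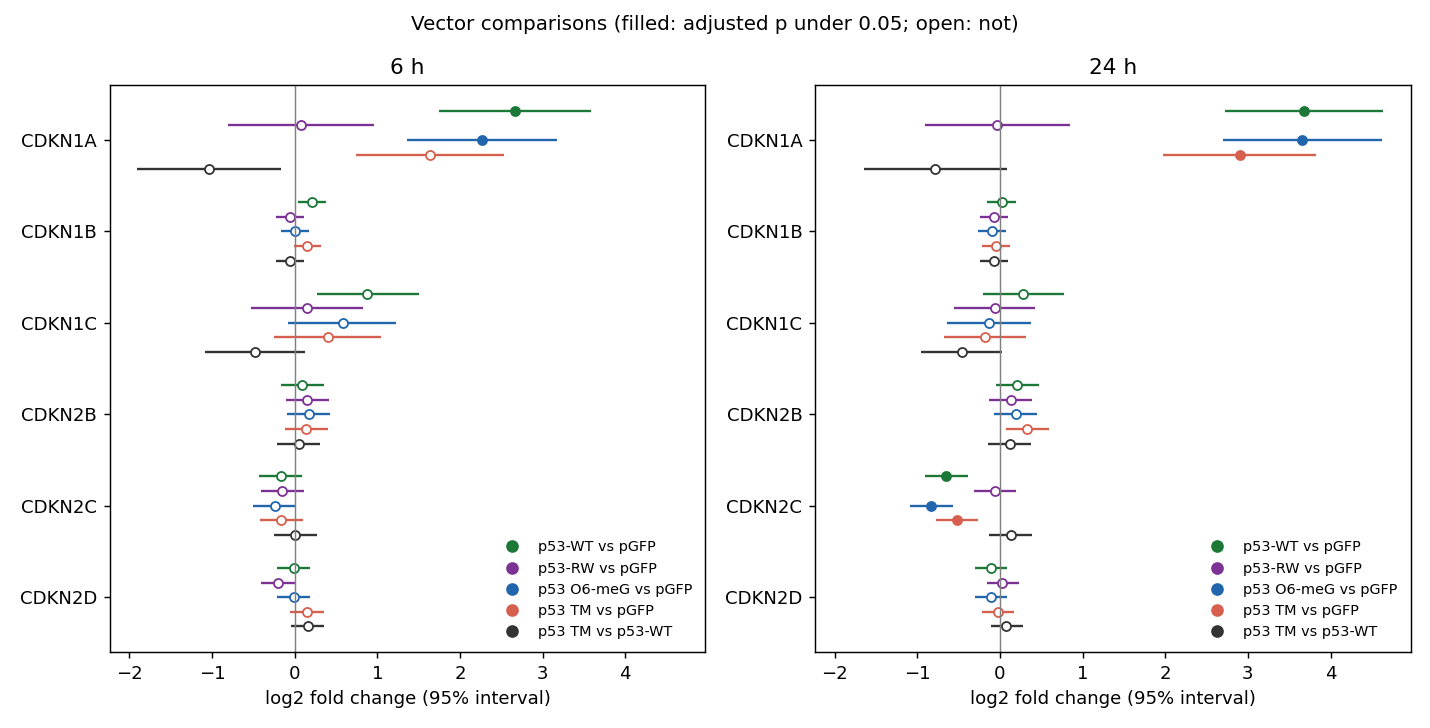
Log2 fold change of each CDK inhibitor gene (horizontal axes, with 95% intervals) for 4 comparisons with pGFP and for p53 TM against p53-WT, at 6 h (left) and 24 h (right), libraries as labelled. Filled points have an adjusted p under 0.05; CDKN1A with p53-WT at 3.68 and CDKN2C with p53 O6-meG at -0.83 mark the 2 ends at 24 h.

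More members were called between times than between plasmids. In pGFP cells 5 of 6 members were higher at 24 h than at 6 h, all but CDKN1A, where 40.1% of all genes were called in either direction. The log2 changes were 0.85 for CDKN1B (SE 0.08, adjusted p = 1.6e-08), 2.11 for CDKN1C (SE 0.28, adjusted p = 1.9e-06), 0.40 for CDKN2B (SE 0.13, adjusted p = 0.013), 0.94 for CDKN2C (SE 0.13, adjusted p = 2e-06) and 0.84 for CDKN2D (SE 0.10, adjusted p = 2.4e-07). The median over the 6 members was 0.85 and that over all genes 0. Of the 11 markers with counts 6 could be tested, and 2 were called in the same comparison: KRT18 fell from 611 to 348 CPM (log2 -0.81, adjusted p = 1.1e-05), and CD14, a blood marker, rose from 0.248 to 1.35 CPM (log2 2.45, adjusted p = 0.00047), a level like that of CDKN1C. In these pGFP libraries CD14 and PTPRC summed to 0.175 to 0.327 CPM at 6 h and to 1.23 to 1.44 CPM at 24 h. This sum was nearly all CD14, since PTPRC, a marker of white blood cells, was at or near 0. The part of the KRT18 and CD14 shifts in the members' rise was not tested.

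The p53-RW cells gave the same 5 members, with 39.3% of all genes called. CDKN1B rose by 0.84, CDKN1C by 1.89, CDKN2B by 0.38, CDKN2C by 1.03 and CDKN2D by 1.07 on the log2 scale, with adjusted p from 7.7e-09 for CDKN2D to 0.019 for CDKN2B. CDKN2C and CDKN2D passed 2-fold there, at 2.05-fold and 2.10-fold. The CDKN2B call was lost without pGFP replicate 1 at 6 h (adjusted p = 0.070) or replicate 3 at 24 h (0.060) in pGFP cells, and without p53-RW replicate 1 (0.063) or 2 (0.069) at 6 h or replicate 1 at 24 h (0.12) in p53-RW cells.

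In p53-WT cells all 6 members rose, where 45% of all genes were called. Beside CDKN1A, the log2 changes were 0.66 for CDKN1B (adjusted p = 4.3e-07), 1.5 for CDKN1C (adjusted p = 3.5e-05), 0.52 for CDKN2B (adjusted p = 0.0016), 0.47 for CDKN2C (adjusted p = 0.0039) and 0.74 for CDKN2D (adjusted p = 1e-06). The CDKN2C change with time thus took its level from 17.7 ± 0.777 to 24.5 ± 3.71 CPM (SD, n = 3) with p53-WT, and from 20 ± 0.225 to 38.4 ± 3.06 CPM (SD, n = 3) with pGFP.

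The p53 O6-meG and p53 TM groups had the same order of levels between times, and for each of the 6 members no library at 24 h lay below any library of its group at 6 h. These changes with time were not tested, and the share of all genes that separated in this way was not counted. In the groups that were tested, 40.1% (pGFP), 39.3% (p53-RW) and 45% (p53-WT) of all genes were called between times. For CDKN1B the p53 TM libraries went from 48.7, 43.8 and 45.2 CPM at 6 h to 67.2, 74.4 and 74.2 CPM at 24 h. For CDKN1C they went from 0.361, 0.303 and 0.374 CPM to 1.26, 1.02 and 0.763 CPM. The 2 times were separate collections of cells, so time after transfection and anything else that differed between these collections cannot be told apart.

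**Figure D4:**
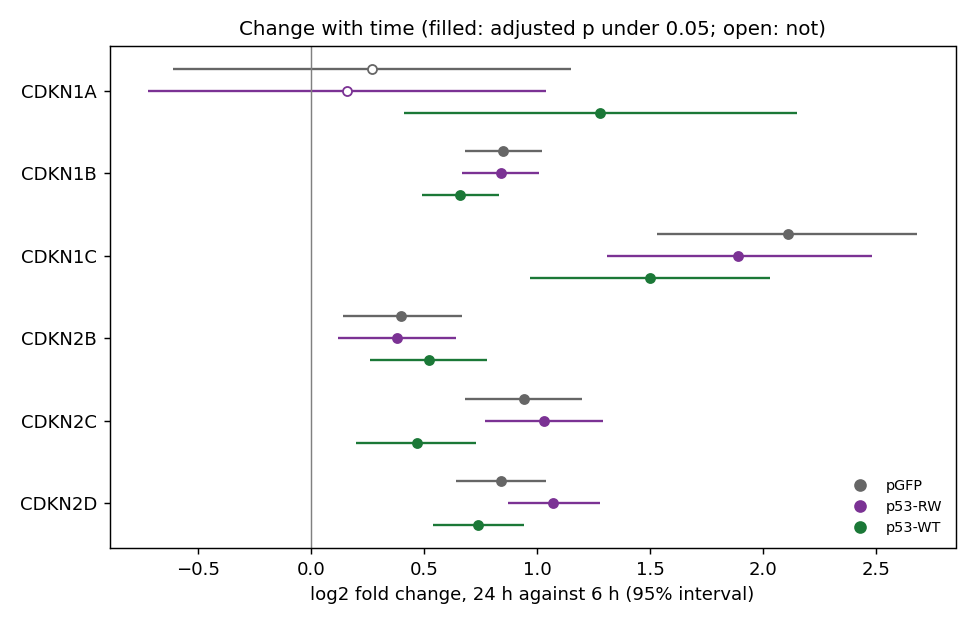
Log2 fold change of each CDK inhibitor gene from 6 h to 24 h (horizontal axis, with 95% intervals) in pGFP, p53-RW and p53-WT cells. Filled points have an adjusted p under 0.05: the 5 members other than CDKN1A rose in all 3 kinds of cell, CDKN1C most, by 2.11 with pGFP, and CDKN1A rose with p53-WT by 1.28.

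To compare levels between genes, CPM was divided by the length of the canonical transcript in kilobases. On this scale the highest of the 6 in pGFP cells at 6 h was CDKN2C at 20.1 ± 0.226 CPM per kb (SD, n = 3), followed by CDKN1A at 18.9 ± 2.46 and CDKN1B at 17.1 ± 1.60, and these neighbours differed by less than their spread. CDKN2D at 6.15 ± 0.121 and CDKN2B at 4.66 ± 0.437 came next, and CDKN1C was the lowest at 0.148 ± 0.0394. In pGFP cells at 24 h the order was CDKN2C (38.6 ± 3.08), CDKN1B (30.9 ± 2.20), CDKN1A (22.7 ± 1.40), CDKN2D (11 ± 0.224), CDKN2B (6.17 ± 0.383) and CDKN1C (0.641 ± 0.113).

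With p53-WT at 24 h CDKN1A led at 291 ± 71.7 CPM per kb, and CDKN1B followed at 31.3 ± 1.08 and CDKN2C at 24.6 ± 3.73. Over the 10 group means the highest was 15.4 times the lowest for CDKN1A, 5.26 times for CDKN1C, 2.27 times for CDKN2C, 2.12 times for CDKN2D, 1.91 times for CDKN1B and 1.67 times for CDKN2B. The order between genes depends on the length used. Divided by all annotated exon bases of a gene (2996 for CDKN1A, 9255 for CDKN1B and 3018 for CDKN2C, against 2117, 2411 and 995 in the canonical transcripts), CDKN1A led in pGFP cells as well, at 13.3 ± 1.74 CPM per kb at 6 h and 16.1 ± 0.992 at 24 h (SD, n = 3). CDKN2C was then at 6.63 ± 0.0746 and 12.7 ± 1.02, and CDKN1B at 4.45 ± 0.416 and 8.05 ± 0.574. With p53-WT at 24 h CDKN1A led by either length. The exon length was added after the data were seen.

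Levels of CDKN1A within the 24 h groups ordered p53-WT (617 ± 152 CPM, SD, n = 3) and p53 O6-meG (610 ± 149) first, then p53 TM (360 ± 66.7), then pGFP (48.1 ± 2.97) and p53-RW (47.1 ± 3.00). The first 2 and the last 2 differed by less than their spread. Replicate 2 was the highest of 3 for CDKN1A in p53-WT, p53 O6-meG and p53 TM cells. The same-numbered libraries at 24 h deviated together across all genes. With the replicate number as a block no call for CDKN1A at 24 h changed, and the part of this shared deviation in its levels was not tested.

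The kinases, cyclins and substrates that the inhibitors act on or through were counted as a list of 19 genes. At 24 h 4 of the 19 were higher and 9 lower with p53-WT than with pGFP, with a median log2 fold change of -0.27 against 0.01 over all genes. Of all genes 34.9% were called in that comparison, 4241 higher and 3044 lower. Among the partners of the CIP/KIP inhibitors, CCNE2, a cyclin E gene, fell by 1.55 on the log2 scale (adjusted p = 1.6e-08) and CDK1, the mitotic kinase, fell by 1.32 (adjusted p = 4.3e-07). CDC25A, a phosphatase that activates these kinases, fell by 0.74 (adjusted p = 3.4e-07), and SKP2, part of the ligase that marks p27 for destruction, fell by 0.39 (adjusted p = 0.0017). CCNA1, a cyclin A gene best known from germ cells, rose by 2.39 (adjusted p = 6.9e-09).

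Of the 5 genes for CDK4, CDK6 and the D-type cyclins 1 passed the test at 24 h with p53-WT. CDK4 had a log2 fold change of 0 (SE 0.11) and CDK6 of 0.18 (SE 0.17, adjusted p = 0.45), and CCND1, a D-type cyclin, rose by 0.40 (adjusted p = 0.043). Of the substrates, RB1 rose by 0.80 (adjusted p = 1.8e-06) and RBL2 by 0.27 (adjusted p = 0.0079), and RBL1 fell by 0.70 (adjusted p = 2.5e-07).

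With p53 O6-meG, 4 of the 19 were higher and 8 lower at 24 h, where 29.3% of all genes were called. With p53 TM 1 was higher (RB1, by 0.56, adjusted p = 0.0012) and 4 lower (CCNE2, RBL1, SKP2 and CDC25A), where 9.2% of all genes were called. Against p53-WT the p53 TM cells had 4 of the 19 higher and 2 lower at 24 h, where 18.5% of all genes were called. CCNE2 was higher by 1.10 (adjusted p = 1.7e-05), CDK1 by 0.88 (adjusted p = 0.00042), CDC25A by 0.41 (adjusted p = 0.0016) and RBL1 by 0.38 (adjusted p = 0.002), while CCNA1 was lower by 1.86 (log2 -1.86, adjusted p = 3e-06) and CCND1 by 0.65 (log2 -0.65, adjusted p = 0.004). At 6 h p53-WT moved 2 of the 19, CCNA1 upward by 0.90 (adjusted p = 0.0034) and CCNE2 downward (log2 -0.44, adjusted p = 0.044), a share near the 8.75% of all genes called. In the libraries labelled p53 TM at 6 h, 1 of the 19 was higher and 0 lower than with p53-WT, where 0.0766% of all genes were called.

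With time, most of the 19 went the other way from the inhibitors. In pGFP cells 2 were higher at 24 h and 13 lower, with a median log2 change of -0.43, against a rise of 5 of the 6 inhibitors. Over all genes 3836 were higher and 4544 lower there, 40.1% in all, with a median of 0. In p53-RW cells 2 of the 19 were higher and 12 lower (39.3% of all genes called), and in p53-WT cells 3 were higher and 14 lower (45%).

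**Figure D5:**
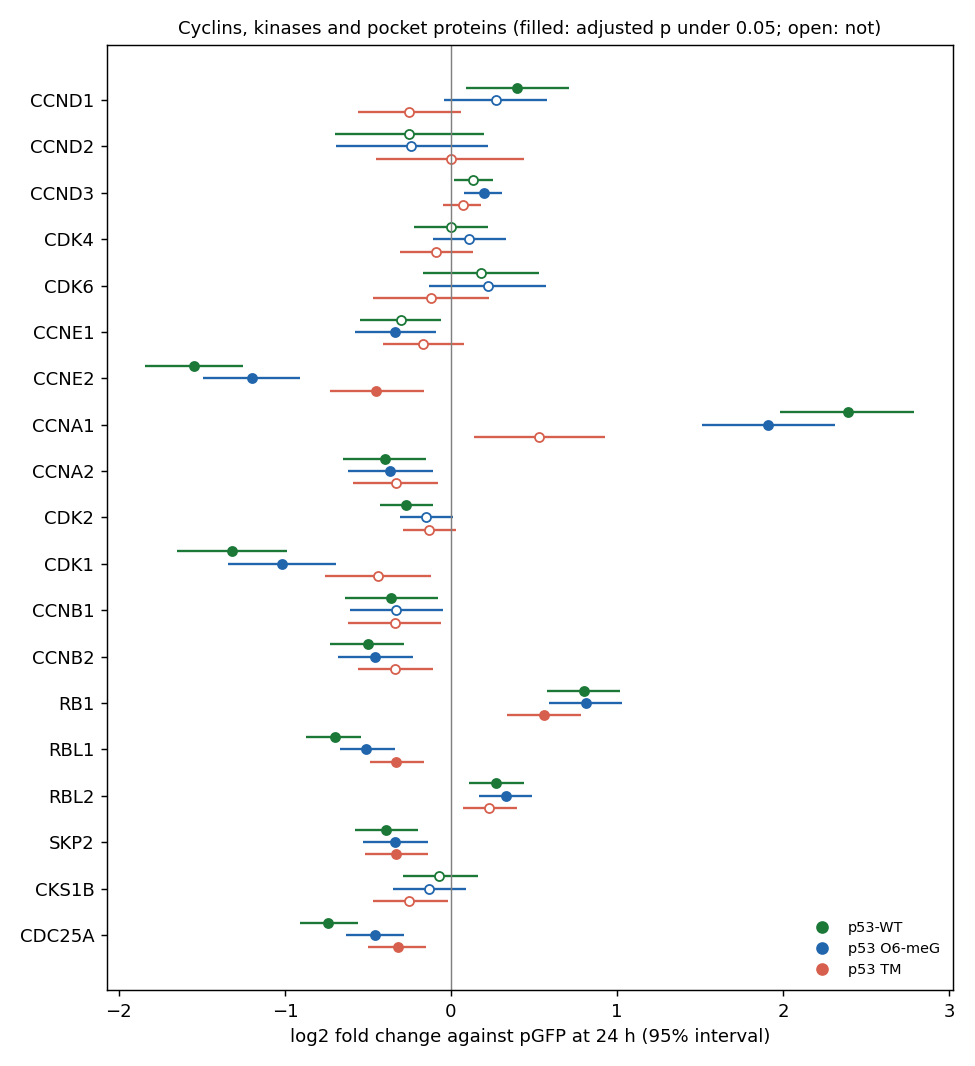
Log2 fold change against pGFP at 24 h (horizontal axis, with 95% intervals) of the 19 cyclins, kinases, pocket proteins and regulators with p53-WT, p53 O6-meG and p53 TM. Filled points have an adjusted p under 0.05; CCNA1 at 2.39 and CCNE2 at -1.55 are the ends for p53-WT, and the p53 TM points of both lie nearer to 0.

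Among the genes whose log2 CPM ran most alike that of CDKN1A over the 30 libraries were INPP5D (Pearson r = 0.989), BAX (0.988) and DRAXIN (0.987), out of 14097 candidates. For CDKN2C they were FLT4 (0.946) and GFI1 (0.939), for CDKN1B TSPAN33 (0.965) and ATG9A (0.959), for CDKN1C GPR153 and AQP3 (0.942 each, of 14098 candidates), for CDKN2B GBF1 (0.911) and HAGLR (0.909), and for CDKN2D CHPF (0.969) and MRC2 (0.960). These correlations describe points that share libraries, groups and times. By rank correlation none of the named genes was again among the closest but CHPF.

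The sources used here do not say whether the counting used strand, and without strand the reads of a gene and of an antisense partner cannot be told apart. On the opposite strand DINOL shares 146 exon bases with CDKN1A and ENSG00000290102 shares 617 with CDKN2C, and neither has a row of its own in the counts used. CDKN2B-AS1 and GPR19 overlap CDKN2B and CDKN1B on the opposite strand but share no exon base with them.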

How the data were processed

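Total RNA of sorted H1299 cells was sequenced as stranded, ribosome-depleted libraries in 30 samples. Per the labels and the study's methods, the authors aligned reads with STAR 2.5.3a to hg38 and counted them per GENCODE gene with featureCounts of Subread 1.5.2, and these raw counts were deposited and used here; the strand setting is not given in the sources used here. A second deposited table of normalized values was not used.

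Counts of the 20875 genes that passed filterByExpr were fitted with edgeR 4.0.16 (R 4.3.3) by quasi-likelihood over all 30 libraries with TMM scaling, with Benjamini-Hochberg adjustment across every gene tested. A gene was called at an adjusted p under 0.05, without a limit on fold. All 6 members were named, and some other genes are not reported here. The members, the list of 19 related genes, the tests and the alternatives were chosen with earlier results of these data known. DESeq2 1.42.0 was an alternative. The fitting was checked on simulated data.

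At 24 h, samples of the same number deviated together: all 30 pairs of libraries from different groups correlated at 0.192 to 0.627, so values with the replicate number as a block are given beside the 24 h results whose call they change. At 6 h, 10 of 30 pairs exceeded 0.1. Replicates were not duplicates, since each pair differed beyond counting error. Coordinates, lengths and the upstream sequence come from hg38 and GENCODE, in a later release than the authors used. The window before canonical starts was added after the data were seen.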

Additional observations from a re-analysis of the deposited data

How the results depend on the processing

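Of 4332 log2 fold changes of members recomputed over 38 alternatives and 19 comparisons, 4286 kept their side of the threshold, 15 lost a call, 31 gained one and none that was called changed sign; 88 that were called in neither fit changed sign. The counts of members called equalled those reported in 682 of 722 cases. Most alternatives leave out 1 library, often one outside the comparison, so these recomputed values are far from independent. With the replicate block, 3 members were called for p53-WT against pGFP at 6 h, with CDKN1B (adjusted p = 0.047) and CDKN1C (0.034) added, although pairing was not shown at 6 h. The block gave 1 member for p53 TM against p53 O6-meG at 24 h and 1 for the change of the p53-WT response with time, and beside CDKN2B with p53 TM at 24 h it changed no other call. With the 2 conflicting libraries exchanged, 1 member was called for p53 TM against p53-WT at 6 h (CDKN1A, -2.14), 2 for p53 TM against p53 O6-meG at 6 h (CDKN1A, -2.16, and CDKN2D, 0.32), and 1 (CDKN1A) at 24 h for p53 TM against p53-WT (-0.78), for p53 TM against p53 O6-meG and for both changes with time. With both left out the counts were 2, 2, 1, 1, 1 and 1, and CDKN1A differed between p53 TM and p53-WT by -2.04 at 6 h and -0.77 at 24 h. With only the groups compared, 0 members were called for p53 O6-meG against pGFP at 6 h, 1 for p53 TM against p53-WT at 24 h (CDKN1A, -0.77) and 2 for the change of the p53-WT response. DESeq2 called 1 member, CDKN1A, for p53 TM against pGFP at 6 h (adjusted p = 0.039). The shares of all genes called under the alternatives are not given here.

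Leaving out 1 library gave 0 to 1 member for p53 O6-meG against pGFP at 6 h, 0 to 1 for p53 TM against pGFP at 6 h (CDKN1A, without the library labelled p53 O6-meG replicate 2, adjusted p = 0.028), 0 to 2 for p53 TM against p53-WT at 6 h, 1 to 3 for p53 TM against pGFP at 24 h, 0 to 1 for p53 TM against p53 O6-meG at 24 h and 0 to 1 for the change of the p53-WT response. The CDKN1A difference between p53 TM and p53-WT lay between -2.04 and -0.69 at 6 h and, at 24 h, between -0.90 and -0.56. On a log2 scale the p53 TM libraries at 24 h kept 79.0% of the CDKN1A rise in place of 54.9%. By rank correlation 0 of the genes named as most like CDKN1A, CDKN1B, CDKN1C, CDKN2B and CDKN2C were among the closest, and 1 for CDKN2D. With at most 1 mismatch 0 members had a p53 motif in either window. Depth limits CDKN1C, with 10 to 74 reads per library.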
